A study of Sus scrofa with 24 samples.

Results

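The comparison described here is that of dietary fibre in the colon of sows that all received N-carbamylglutamate (NCG). It uses 6 of the 24 libraries of the series, chosen by their diet and tissue labels and not by any measured value. The 3 tested libraries came from colon of sows on the high-fibre diet with NCG (HN; 7.46% crude fibre and 0.05% NCG). The 3 libraries they were set against came from colon of sows on the low-fibre diet with NCG (LN; 3.73% crude fibre and 0.05% NCG), so that NCG was present on both sides and crude fibre was the labelled difference. The other colon libraries, from the high-fibre (HF; 7.46%) and low-fibre (LF; 3.73%) diets without NCG, served to estimate the spread and to set a fibre difference without NCG beside the one with it. Diets were fed from breeding through the 114 days of gestation to 100 sows per diet. All libraries are poly(A) RNA sequencing of pig (Sus scrofa) tissue, and no age or breed is used here. Whether the 3 libraries of a group came from separate sows is not stated in the labels, so p-values measure the spread between libraries, which may be partly technical.

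Crude fibre escapes digestion in the small intestine and is fermented by bacteria in the large intestine to short-chain fatty acids. The colonic epithelium takes up these acids through monocarboxylate transporters, burns butyrate as a main fuel, senses them through free fatty acid receptors, and secretes a mucus layer built on the mucin MUC2. NCG is a stable stand-in for N-acetylglutamate, which switches on carbamoyl phosphate synthetase (CPS1). CPS1 is the entry enzyme of the urea cycle, and in enterocytes of the small intestine it feeds the synthesis of citrulline and arginine. The questions the comparison addresses are whether colon genes of these functions differ with fibre when NCG is fed, and whether that difference is another than the one without NCG or the one in the ileum.

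Total counts lay between 14843272 and 15964754 in the HN libraries and between 15712591 and 17869203 in the LN libraries, with 16532 to 16770 and 16720 to 16874 genes detected. Levels are given as CPM, read counts scaled to the library size with edgeR's TMM factors, and differences as log2 HN minus LN. A library with 0 counts of a gene may still hold up to 3, or 0.168 to 0.202 CPM. This limit covers counting error only, whereas the standard errors and 95% intervals of log2 differences come from the fit and hold the spread between libraries.

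HN library 1 stood apart from the other 5, and values without it are given beside the main results that depend on it. It was the highest of the 6 libraries in 37.0% of the tested genes and the lowest in 39.3%, where each library would take 16.7% if all were alike. Over all tested genes its log2 levels correlated with those of the 5 others at r = 0.714 to 0.884, whereas the 5 others correlated among themselves at 0.906 to 0.971. On the first principal component of the 12 colon libraries, which held 66.5% of the variance, HN library 1 lay at −152 beside LF library 2 at −158, and the other HN and LN libraries lay between −25.7 and 78.6. HN library 3, at 78.6, was the highest of the 6 in 25.1% of the tested genes and the lowest in 26.9%. HN library 2 and the LN libraries were each highest in at most 11.5% and lowest in at most 15.0%. Counts of genes without HN library 3 are given in the closing section.

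CDH1 and MUC2, genes of epithelial cells, were low in HN library 1. Of 18 tested tight junction genes 16 were lowest of the 6 libraries there and 1 was highest. Markers of colon identity were mixed, with 8 of 13 tested genes lowest in HN library 1 and 3 highest. CDH1, the adhesion protein of epithelial cells, had 23.3, 765 and 1090 CPM in HN libraries 1, 2 and 3, against 591, 581 and 776 CPM in LN libraries 1, 2 and 3. MUC2 had 30.3, 1220 and 2400 CPM in HN, against 804, 1330 and 990 CPM in LN. In both genes HN library 1 was far below every other library of the pair of groups, while HN libraries 2 and 3 overlapped with or exceeded LN. Smooth muscle markers ran the other way. MYH11, the smooth muscle myosin heavy chain, had 36100, 5610 and 489 CPM in HN, against 17500, 11100 and 461 CPM in LN. The 18 smooth muscle markers averaged 11.74, 9.14 and 6.35 log2 CPM in HN, against 11.08, 10.17 and 6.12 in LN, so both groups ran over most of the same range and no group was uniformly muscle-rich. In bulk tissue, fewer cells of a type and less RNA per cell cannot be told apart.

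**Figure D1:**
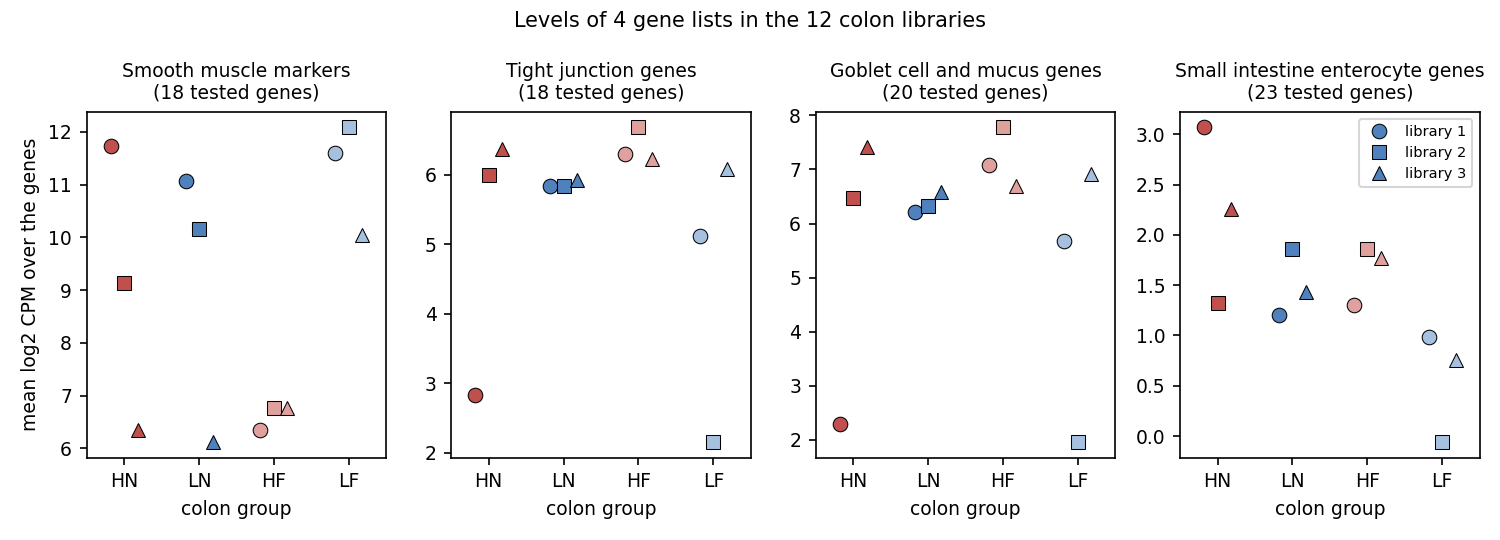
Mean log2 CPM of 4 gene lists in each colon library, by diet group (HN, LN, HF, LF on the x axis; the symbol gives the library number). HN library 1 sits at 2.83 for tight junction genes and 2.30 for goblet cell genes, far below HN libraries 2 and 3 and all LN libraries, and is the highest of the 12 for small intestine enterocyte genes at 3.07.

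HN library 1 also held transcripts of small intestine. APOB, the structural protein of chylomicrons, had 48.0, 0.702 and 1.72 CPM in HN, against 0.287, 2.39 and 0.222 CPM in LN. MGAM, the maltase-glucoamylase of the brush border, had 40.1, 1.53 and 2.33 CPM in HN, against 1.03, 1.84 and 1.72 CPM in LN. Both genes were high in HN library 1 alone, and the other 2 HN libraries lay within or near the LN range. In the scaling of all 24 libraries, MTTP, which loads lipid onto APOB, had 10.5, 0.312 and 0.432 CPM in HN, against 0.230, 0.292 and 0.0563 CPM in LN. Of 65 genes that were higher in ileum in the 12 libraries without NCG, stayed under 1 CPM in each of the 6 NCG-free colon libraries and averaged over 10 CPM in NCG-free ileum, 43 were highest in HN library 1. Among all tested genes the share highest there was 37.0%. The 43 include a tied gene, CYP2C36, with 0 counts in each of the 6 HN and LN libraries. Of the 65 genes 47 had over 3 counts in HN library 1, and 17 to 32 had so in the other 5 libraries. This set was chosen after levels had been seen and is given without a test. Their summed level, in the same scaling, was 196, 15.8 and 22.2 CPM in HN libraries 1, 2 and 3, against 11, 18.1 and 10.4 CPM in LN. The median gene of the set stood at 2.46% of its mean level in NCG-free ileum in HN library 1, and at 0.127% to 0.363% in the other 5 libraries.

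Not all markers of the small intestine were high there. FABP6, the ileal bile acid binding protein, had 0.0669, 0.510 and 15.8 CPM in HN, against 1.95, 10.1 and 1.61 CPM in LN. SLC10A2, the ileal bile acid transporter, had 0, 9.18 and 4.85 CPM in HN, against 4.99, 6.18 and 15.3 CPM in LN. The 2 genes that mark the most distal ileum were thus lowest in HN library 1, and FABP6 was highest in HN library 3. In the ileum libraries, in the scaling of all 24 libraries, FABP6 ran from 0 to 8420 CPM and SLC10A2 from 0 to 292 CPM. Absence of either gene thus also occurred in ileum. SI, the sucrase-isomaltase, was not limited to HN library 1, with 64.7, 53.9 and 12.5 CPM in HN, against 14.0, 27.2 and 9.21 CPM in LN. The sodium-glucose transporter SLC5A1 had 35.9, 64.1 and 107 CPM in HN, against 35.3, 50.6 and 69.9 CPM in LN. APOA4, another chylomicron protein, was removed by the filter on low counts and had 5.59 CPM in HN library 1 and 0 in each of the other 5.

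**Figure D2:**
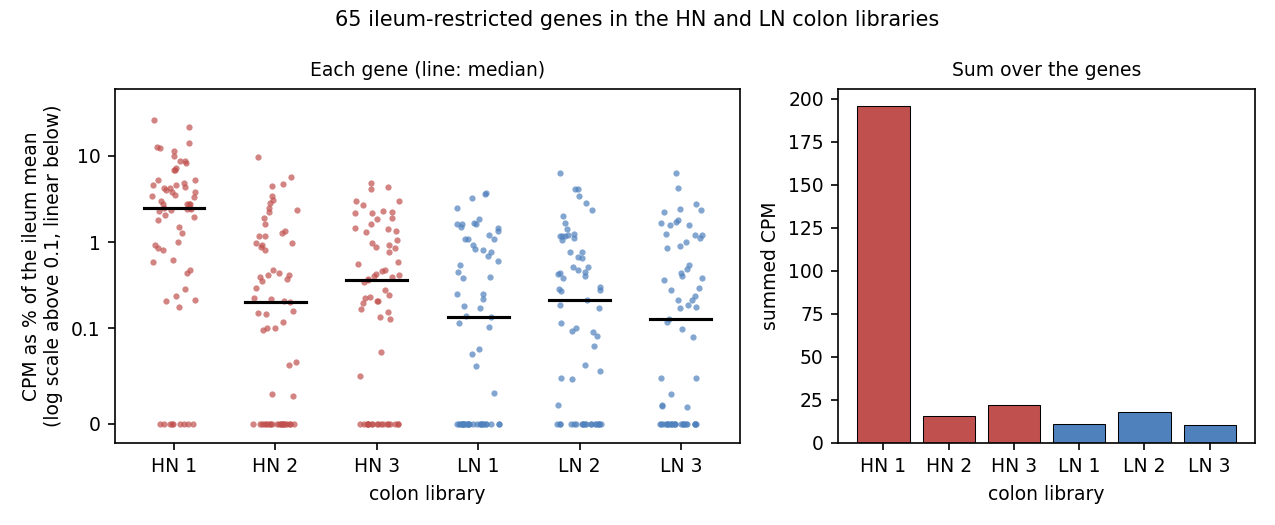
Left, the level of each of 65 ileum-restricted genes as a percentage of its mean level in NCG-free ileum (symmetric log axis, linear below 0.1), in HN and LN colon libraries, with the median as a line. Right, the summed CPM of the genes, 196 in HN library 1 and 10.4 to 22.2 in the other 5.

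No gene passed the test of HN against LN. Of 15075 tested genes 0 were called with edgeR's quasi-likelihood test at an adjusted p under 0.05 (percent called 0), and the smallest adjusted p was 0.9999. At an unadjusted p under 0.05 there were 153 genes (1.01%), 73 with a higher mean in HN (0.484%) and 80 with a lower one (0.531%), where 754 would be counted if p-values were evenly spread. With RLE scaling 90 were higher and 58 lower. Without HN library 1 the same fit called 0 of 15244 genes, and 143 had an unadjusted p under 0.05 (0.938%), so the absence of calls did not depend on that library. DESeq2 called 1 gene, FABP2, with an adjusted p of 0.0487. Counts were also simulated gene by gene, with the dispersion of each gene in the colon libraries. With 3 libraries a side the same fit called 1% of 100 genes changed by 2-fold and 24% of 100 genes changed by 4-fold. Most genes changed by these folds therefore went uncalled in the simulation. It held no outlying library and no spread shared between genes, so these shares need not hold for the libraries themselves.

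**Figure D3:**
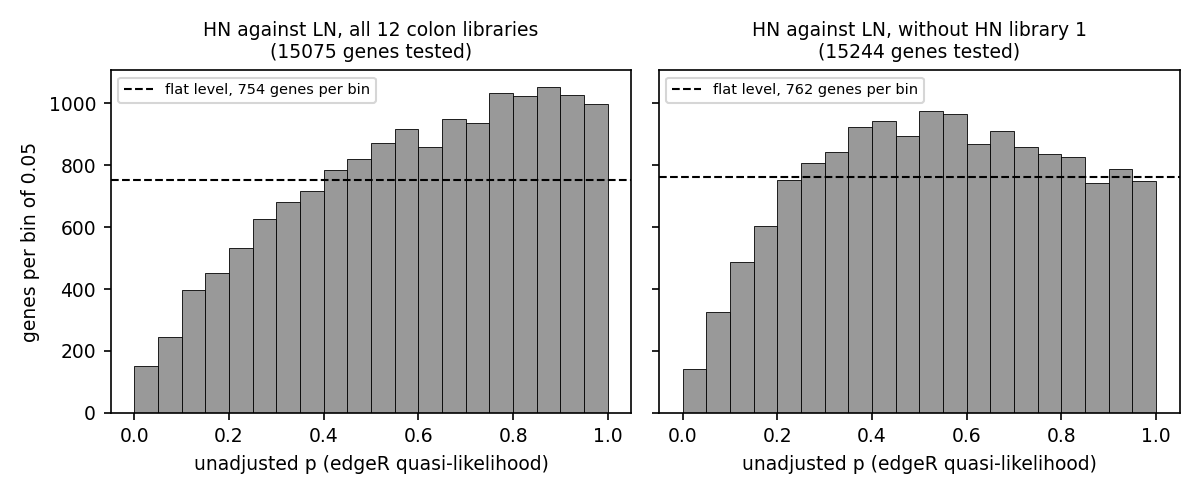
Unadjusted p-values of HN against LN over all tested genes, in bins of 0.05, with all 12 colon libraries (left) and without HN library 1 (right); the dashed line is the level of evenly spread p-values. The first bin holds 153 genes on the left and 143 on the right, below the line at 754 and 762.

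The genes given next had the smallest p-values and are values, not calls. SIAE, a sialic acid acetylesterase, had 49.1, 50.8 and 31.9 CPM in HN, against 25.0, 25.8 and 23.1 CPM in LN. All 3 HN libraries lay above all 3 LN libraries, and the library that stood apart was not the highest. The log2 difference was 0.83 ± 0.25 (SE; 95% interval 0.28 to 1.39; edgeR unadjusted p = 0.00708), and 0.75 without HN library 1. LOC110260348, which the annotation leaves without a name, had 6.48, 7.78 and 12.2 CPM in HN, against 3.61, 1.96 and 4.11 CPM in LN. Its groups did not overlap, and its log2 difference was 1.45 ± 0.41, and 1.62 without HN library 1. EFCAB6, an EF-hand protein, had 3.54, 2.1 and 1.97 CPM in HN, against 1.09, 1.35 and 0.777 CPM in LN, without overlap.

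On the lower side, IGSF6, an immunoglobulin superfamily member known from myeloid cells in human, had 1.81, 3.38 and 3.38 CPM in HN, against 5.85, 5.76 and 5.82 CPM in LN. The LN libraries were nearly equal, and the HN libraries were all below them (log2 difference −1.02 ± 0.29; edgeR unadjusted p = 0.00546). MARCH1, a ubiquitin ligase that removes MHC class II from the surface of antigen-presenting cells, had 12.7, 11.6 and 12.8 CPM in HN, against 16, 24.1 and 23.4 CPM in LN. Here the HN libraries were the ones close together, and the log2 difference was −0.77 ± 0.22. DRAM2, a lysosomal membrane protein tied to autophagy, had 21.5, 23.4 and 24.3 CPM in HN, against 35.5, 35.5 and 34.4 CPM in LN. Both groups were tight and apart, with a log2 difference of −0.61 ± 0.18 that was −0.56 without HN library 1. IGSF6 and MARCH1 kept log2 differences of −0.78 and −0.79 without it. Between the diets without NCG the log2 differences (HF minus LF) were 0.44 for IGSF6, 0.16 for MARCH1 and 0.14 for DRAM2. In the Sscrofa11.1 coordinates of the files, SIAE lies on chromosome 9 (51879220 to 51918974), LOC110260348 on chromosome 4 (110427855 to 110433796), IGSF6 on chromosome 3 (23673162 to 23683256), MARCH1 on chromosome 8 (52375510 to 52951031) and DRAM2 on chromosome 4 (109183389 to 109205735).

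**Figure D4:**
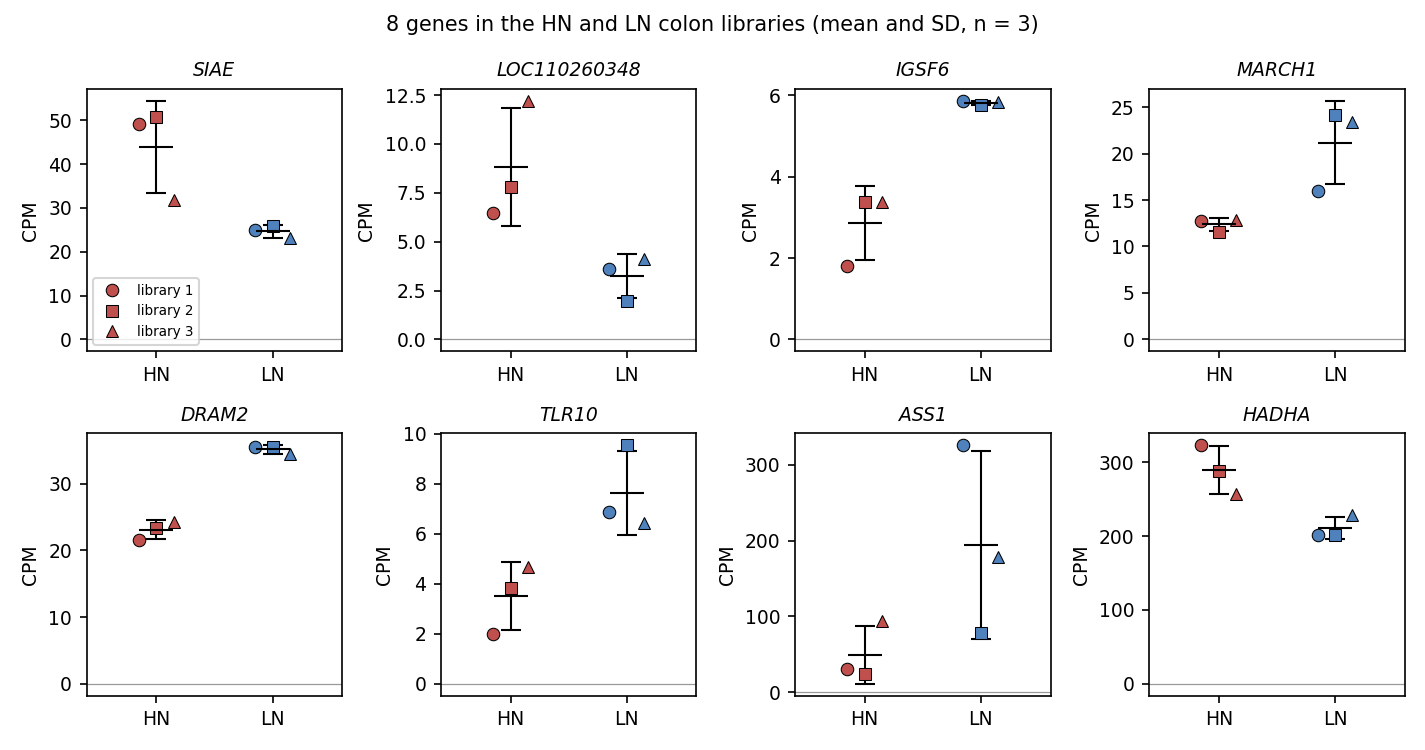
CPM of 8 genes in the 3 HN and 3 LN colon libraries (symbol: library number; black line and bars: mean and SD, n = 3). HN lies above LN for SIAE, LOC110260348 and HADHA and below it for IGSF6, MARCH1, DRAM2 and TLR10 without overlap, while the groups overlap for ASS1.

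Other genes with small p-values rested on few libraries or few counts. FABP2, the intestinal fatty acid binding protein of enterocytes, had 18.3, 0.255 and 5.53 CPM in HN, which are 273, 4 and 90 counts, against 0 counts in each LN library. Against the limit of 3 counts per LN library its mean was at least 44.7-fold higher in HN, and at least 16.1-fold higher without HN library 1. APOC3, an apolipoprotein of chylomicrons, had 5.95, 0.191 and 0.737 CPM in HN, against 0, 0.0612 and 0.0555 CPM in LN. Both genes were highest in HN library 1, and HN library 3 was second. HN library 2 had 4 counts of FABP2, so the fold left without HN library 1 came mostly from HN library 3. The MGAM log2 difference of 3.25 ± 1.06 was 0.34 without HN library 1, and the APOB difference of 4.12 ± 1.48 was also 0.34 without it. SLC2A5, the fructose transporter, had 1.74, 2.81 and 1.72 CPM in HN, against 16.9, 1.53 and 52.0 CPM in LN. It was high in LN libraries 1 and 3 alone, and its groups overlapped through LN library 2.

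Of the 153 genes at an unadjusted p under 0.05, 43 had one in the same direction without HN library 1, 19 of the 73 higher and 24 of the 80 lower. HN library 1 was the highest of the 6 in 53 of the 73 higher genes. Of these 73, 24 were among the genes called higher in ileum than in colon in the 12 libraries without NCG. Of the 80 lower genes 7 were. Of the 14817 genes tested in both fits 863 were called so (1008 of 15090 genes, 6.68%, in the fit of the 12 libraries). The 10 genes in which HN library 1 exceeded the highest of the other 5 by most were APOB, MGAM, LOC100623616, ACTA1, SMIM24, TM4SF20, INMT, CILP, GRB14 and ALKAL1. They hold brush border and lipid genes and also muscle and matrix genes. ACTA1, the skeletal muscle actin, had 197, 0.893 and 0 CPM in HN, against 22.5, 21.5 and 0 CPM in LN. CILP, a matrix protein first known from cartilage, had 287, 29.9 and 17.1 CPM in HN, against 49.9, 43.3 and 12.5 CPM in LN. Leaving out HN library 1, the smallest p-values on the higher side fell to LOC100525318, DCAKD, LOC110260348, S100A13 and HES1, and on the lower side to LOC110259135, NAP1L5, LRFN1, IFI44 and MARCH1. HES1, a Notch target that favours absorptive over secretory fate, had 12.8, 54.7 and 40.2 CPM in HN, against 26.1, 30.1 and 30.4 CPM in LN. Its HN libraries lay on both sides of LN, with a log2 difference of 0.31 ± 0.41 over all libraries and 0.72 without HN library 1. IFI44, an interferon-stimulated gene, had 40.9, 18.1 and 18.6 CPM in HN, against 27.5, 27.9 and 32.9 CPM in LN, so HN libraries 2 and 3 were below LN and HN library 1 above it.

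Groups that did not overlap were counted next. All 3 HN libraries were above all 3 LN libraries in 283 genes (1.88%) and below them in 257 (1.70%). By the gap between the groups, the higher genes were led by LOC102167784, LOC110260348, FBXL2, TPPP3, ATP8B3, SERGEF, LOC110255845, SIAE, TSPAN7 and LOC110255237. TSPAN7, a tetraspanin of the cell membrane, had 192, 114 and 112 CPM in HN, against 91.1, 81.3 and 74.1 CPM in LN. TPPP3, which promotes tubulin polymerisation, had 20.2, 14.6 and 15.0 CPM in HN, against 6.48, 9.19 and 10.8 CPM in LN. FBXL2, an F-box protein of a ubiquitin ligase, had 2.34, 3.19 and 2.52 CPM in HN, against 1.55, 1.35 and 1.39 CPM in LN. TSPAN7 and TPPP3 were highest in HN library 1, and FBXL2 in HN library 2. The lower genes were led by IGSF6, LOC110258135, LOC100519166, DRAM2, TLR10, IYD, SHCBP1, PCLAF, DSCC1 and DLGAP5. PCLAF, a PCNA-binding protein of DNA replication, had 1.20, 18.4 and 26.3 CPM in HN, against 40.3, 35.0 and 34.9 CPM in LN. DLGAP5, a mitotic spindle protein, had 0.735, 6.76 and 6.45 CPM in HN, against 8.94, 8.88 and 9.10 CPM in LN. Both genes were lowest in HN library 1, and HN libraries 2 and 3 were also under LN.

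Turning to gene groups, 41 lists of cell type markers and pathways were described by the number of members on each side and by their median, beside all tested genes, of which 54.4% had a positive and 45.6% a negative difference with a median of 0.03. No member of any list was called with edgeR. Without HN library 1 the shares were 47.1% positive and 52.9% negative, and the median was −0.02. The sign of the median depended on that library in 22 of the 41 lists, 8 of them positive with it and negative without it and 14 the reverse. In 12 lists the median kept its sign in each of the 6 single omissions, 3 of them positive and 9 negative. Some of these came close to 0 in an omission: endothelium at 0.02, stem cells and crypt at 0.01, B cells at −0.02 and mast cells at −0.02. A kept sign therefore need not be a difference from all tested genes.

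**Figure D5:**
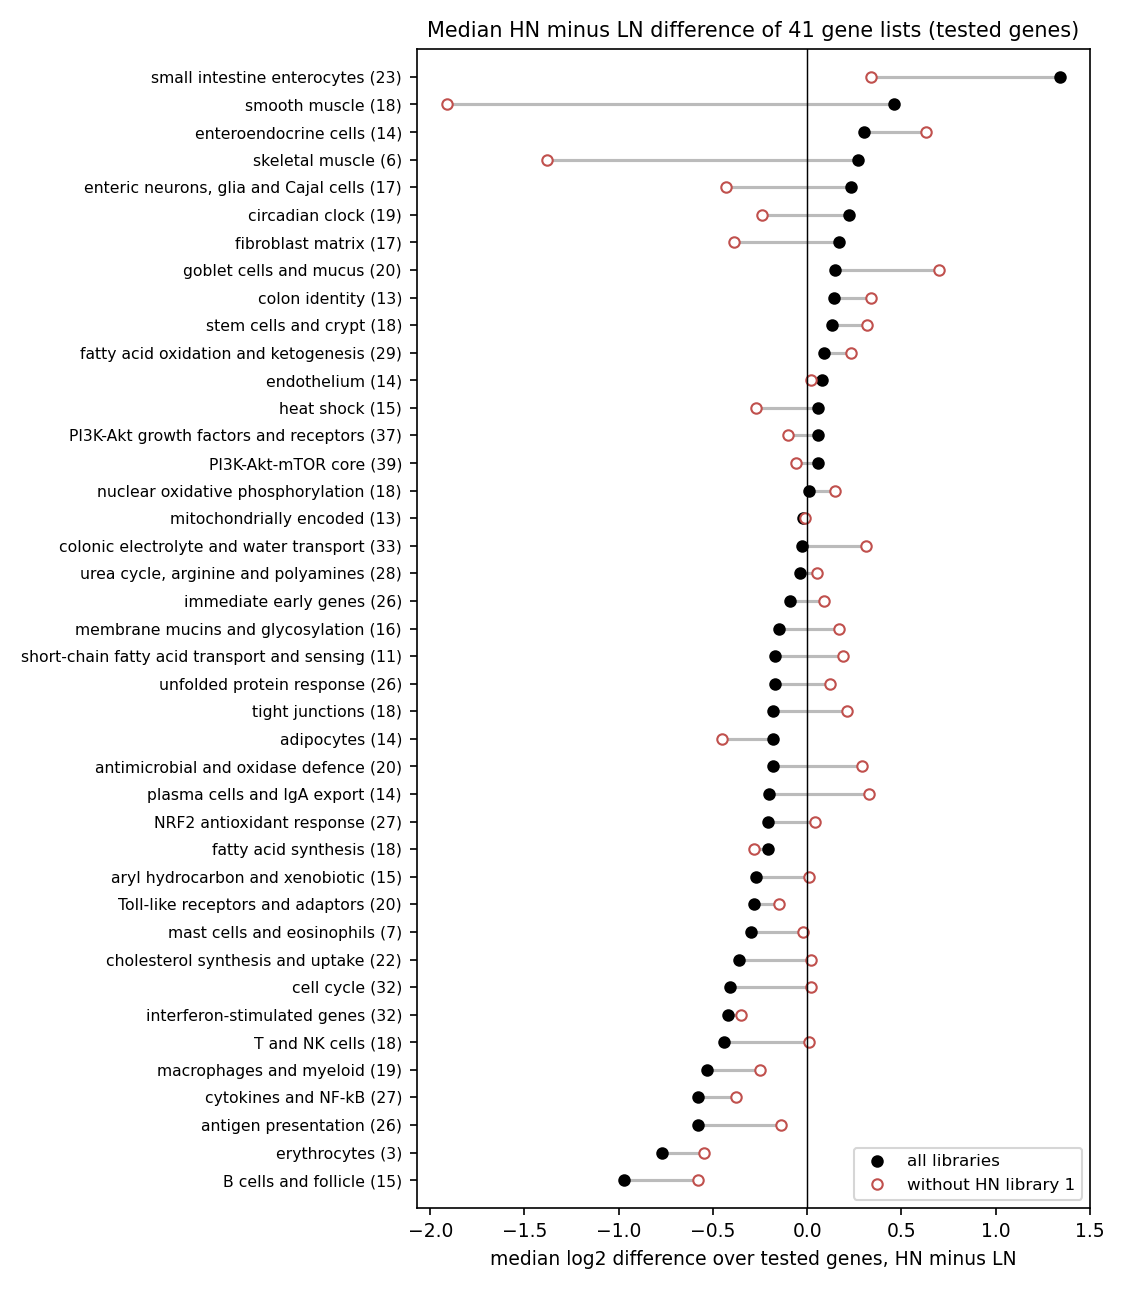
Median log2 difference, HN minus LN, of 41 gene lists (number of tested genes in brackets), with all libraries (filled) and without HN library 1 (open). The smooth muscle median lies at 0.46 with it and −1.91 without it, the goblet cell median at 0.15 and 0.70, and the B cell median at −0.97 and −0.58.

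Mucus and the epithelial barrier came first among the fibre-related functions. In the goblet cell list 16 of 20 tested genes were positive, with a median of 0.15, and 0 had an unadjusted p under 0.05. All 20 were lowest in HN library 1, and without it all 20 were positive with a median of 0.70. Over the single omissions the median ran between −0.68 and 0.70. With the smooth muscle level as a covariate and all libraries it was −0.79. CLCA1, a metalloprotease of the mucus layer, had 70.1, 3000 and 3410 CPM in HN, against 1030, 1510 and 1860 CPM in LN. TFF3, the trefoil peptide of goblet cells, had 15.0, 352 and 418 CPM in HN, against 189, 181 and 250 CPM in LN. FCGBP, a mucus protein that binds MUC2, had 50.7, 1370 and 2160 CPM in HN, against 724, 1120 and 1030 CPM in LN. In each, HN libraries 2 and 3 were above all 3 LN libraries and HN library 1 was below them, so these groups overlapped. Without HN library 1 the log2 differences were 1.13, 0.90 and 0.88, with edgeR unadjusted p = 0.269, 0.367 and 0.412. TFF3 and FCGBP were chosen after their values were seen. MUC2 did not follow this order, since its level in HN library 2, given above, lay below that in LN library 2. Tight junction genes were also high in HN libraries 2 and 3, at a mean of 2.83, 6.0 and 6.36 log2 CPM in HN, against 5.83, 5.83 and 5.92 in LN. The goblet cell mean less the tight junction mean was −0.53, 0.47 and 1.06 in HN, against 0.38, 0.49 and 0.66 in LN, so HN library 3 was above LN and HN library 2 within it. Among tight junction genes 3 of 18 were positive (median −0.18), and 15 of 19 without HN library 1 (median 0.21). CLDN2, the pore-forming claudin, had 4.15, 150 and 134 CPM in HN, against 59.6, 59.4 and 123 CPM in LN.

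Genes of short-chain fatty acid handling did not separate. The list had 4 of 11 tested genes positive (median −0.17), and 7 of 11 without HN library 1 (median 0.19). SLC16A1, the monocarboxylate transporter of the colonocyte, had 279, 987 and 1350 CPM in HN, against 1070, 879 and 1120 CPM in LN. Its log2 difference was −0.23 (95% interval −1.50 to 1.04), and 0.19 without HN library 1. The receptor FFAR2 had 0.134, 0.765 and 1.66 CPM in HN, against 0.344, 0.612 and 1.5 CPM in LN. The sodium-coupled transporter SLC5A8 had 0.267, 0.638 and 4.30 CPM in HN, against 0.974, 3.06 and 0.777 CPM in LN. Both were low in every library, and their 95% intervals ran over −1.79 to 1.91 and −3.05 to 3.29. For the electrolyte and water transporters 14 of 33 tested genes were positive (median −0.03), and 25 of 34 without HN library 1 (median 0.31). SLC26A3, the chloride-bicarbonate exchanger of surface colonocytes, had 46.5, 583 and 2150 CPM in HN, against 1790, 1820 and 1710 CPM in LN. The LN libraries were nearly equal and the HN libraries spanned them, with a log2 difference of −0.93 (95% interval −3.63 to 1.77), and −0.37 without HN library 1. AQP8, a water channel of the colon surface, had 2.54, 64.9 and 135 CPM in HN, against 169, 137 and 192 CPM in LN, all below LN (log2 difference −1.30 ± 1.18, and −0.74 without HN library 1). Markers of position along the colon varied within groups. HOXB13, a homeobox gene of the hindgut end, had 0.669, 0.191 and 77.4 CPM in HN, against 23.1, 23.3 and 8.32 CPM in LN. INSL5, a hormone of distal colon endocrine cells, had 0, 0.128 and 64.4 CPM in HN, against 5.73, 1.65 and 0 CPM in LN, so HN library 3 differed from HN libraries 1 and 2 in both. Their part in the transporter and mucus values was not tested.

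Among endocrine cell genes 10 of 14 were positive (median 0.30), and 12 of 15 without HN library 1 (median 0.63). SST, somatostatin, had 1.87, 14.5 and 34.5 CPM in HN, against 9.57, 4.72 and 7.93 CPM in LN, above LN in HN libraries 2 and 3. GCG, the precursor of GLP-1, had 2.14, 72.0 and 98.3 CPM in HN, against 36.4, 51.6 and 28.8 CPM in LN, in the same order. NTS, neurotensin, had 5.08, 0.446 and 1.11 CPM in HN, against 0.0573, 0 and 0.111 CPM in LN. It was highest in HN library 1, as were 13 of the 23 tested small intestine genes, of which 4 were lowest there.

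Among genes of immune cells and of defence, some lists kept a negative median without HN library 1 and others did not. Antimicrobial and oxidase defence genes had 8 of 20 positive (median −0.18), and 15 of 20 without HN library 1 (median 0.29). B cell markers had 0 of 15 positive (median −0.97), and 1 of 15 without HN library 1 (median −0.58). MS4A1, the B cell antigen CD20, had 0.334, 10.9 and 19.8 CPM in HN, against 3.73, 72.0 and 24.4 CPM in LN. PAX5, the B lineage factor, had 0.201, 4.85 and 15.6 CPM in HN, against 0.974, 58.2 and 6.88 CPM in LN. LN library 2 was the highest in both, and without it the list median was −0.02. BANK1, a B cell adaptor, had 6.95, 12.8 and 17.5 CPM in HN, against 14.2, 33.9 and 24.9 CPM in LN, with overlapping groups (log2 difference −0.97 ± 0.38; edgeR unadjusted p = 0.0275), and the difference was −0.68 without HN library 1. T and NK markers had 0 of 18 positive (median −0.44), all 18 lowest in HN library 1, and 10 of 19 were positive without it. Plasma cell and IgA export genes had 5 of 14 positive, and 13 of 14 without HN library 1. JCHAIN, the joining chain of IgA, had 213, 7200 and 12400 CPM in HN, against 5570, 6320 and 11300 CPM in LN, so HN libraries 2 and 3 lay within or above the LN range.

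Cytokine and NF-kB genes had 2 of 27 positive (median −0.58), and 4 of 28 without HN library 1 (median −0.38). CXCL10, an interferon-induced chemokine that attracts T cells, had 1.6, 21.2 and 13.8 CPM in HN, against 21.7, 48.8 and 50.7 CPM in LN. CXCL8, the neutrophil chemokine, had 1.14, 10.4 and 15.5 CPM in HN, against 24.9, 15.9 and 30.9 CPM in LN. In both chemokines all HN libraries were below all LN libraries, narrowly so for HN library 2 in CXCL10 and HN library 3 in CXCL8, and the log2 differences were −1.73 ± 0.89 and −1.41 ± 0.99. Without HN library 1 they were −1.21 and −0.88. Interferon-stimulated genes had 5 of 32 positive (median −0.42), and 4 of 32 without HN library 1 (median −0.35). With all libraries 3 of the 32 were lower in HN at an edgeR unadjusted p under 0.05, and 0 were higher. Among all tested genes 0.531% were lower at that p. BST2, which tethers virions, had 11.8, 15.6 and 24.1 CPM in HN, against 16.5, 33.5 and 44.8 CPM in LN. OASL, an oligoadenylate synthetase-like protein, had 0.0669, 0.510 and 0.921 CPM in HN, against 1.55, 1.22 and 4.22 CPM in LN. HERC5, the ligase for the ubiquitin-like ISG15 in human, had 7.96, 5.17 and 6.88 CPM in HN, against 7.45, 14.3 and 9.99 CPM in LN. OASL did not overlap between the groups, and BST2 and HERC5 did. Over the single omissions the median of this list ran between −0.66 and −0.23, and that of the cytokine list between −0.90 and −0.33.

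Pattern recognition genes had 4 of 20 positive (median −0.28), and 8 of 20 without HN library 1. TLR10, a Toll-like receptor found on B cells in human, had 2.01, 3.83 and 4.67 CPM in HN, against 6.88, 9.55 and 6.44 CPM in LN. The groups did not overlap (log2 difference −1.12 ± 0.34; 95% interval −1.88 to −0.36; edgeR unadjusted p = 0.00807), and the difference was −0.84 without HN library 1. NLRP3, the inflammasome sensor, had 5.21, 6.0 and 7.55 CPM in HN, against 7.22, 11.9 and 9.93 CPM in LN. NOD2, a sensor of bacterial muramyl dipeptide, had 1.20, 1.72 and 1.72 CPM in HN, against 2.06, 2.76 and 2.61 CPM in LN, below LN in every library. Antigen presentation genes had 2 of 26 positive (median −0.58), 25 of the 26 lowest in HN library 1, and 8 of 26 were positive without it (median −0.14). Macrophage and myeloid markers had 1 of 19 positive (median −0.53), and 3 of 19 without HN library 1 (median −0.25). CSF1R, the receptor of macrophage growth factor, had 49.0, 47.8 and 89.5 CPM in HN, against 61.2, 117 and 93.7 CPM in LN. The parts of B cell and myeloid marker levels in the values of TLR10, IGSF6 and MARCH1 were not tested.

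In the urea cycle, arginine and polyamine list 12 of 28 tested genes were positive (median −0.04), and 14 of 28 without HN library 1 (median 0.05). ASS1, argininosuccinate synthase, which joins citrulline to aspartate on the way to arginine, had 31.1, 24 and 93.8 CPM in HN, against 326, 78.6 and 178 CPM in LN. HN libraries 1 and 2 were the lowest and HN library 3 overlapped with LN library 2. The log2 difference was −1.97 ± 0.69 (95% interval −3.50 to −0.43; edgeR unadjusted p = 0.0170), and −1.72 without HN library 1. CPS1, the enzyme NCG acts on, had 5.28, 0 and 0.614 CPM in HN, against 0.115, 0.612 and 0 CPM in LN. Its level in the other HN and LN libraries than HN library 1 was thus at most 0.614 CPM. In HF library 2 it had 3.28 CPM, in the scaling of all 24 libraries. NAGS, which makes N-acetylglutamate, had 0.802, 6.57 and 7.62 CPM in HN, against 5.39, 6.18 and 6.32 CPM in LN. ARG2, the mitochondrial arginase, had 10.7, 16.9 and 24.3 CPM in HN, against 16.3, 19.8 and 26.5 CPM in LN, with a log2 difference of −0.27 ± 0.44, and −0.02 without HN library 1. NOS2, the inducible nitric oxide synthase that consumes arginine, had 4.75, 8.74 and 34.9 CPM in HN, against 55.7, 22 and 32.3 CPM in LN.

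The PI3K-Akt-mTOR pathway, which the study names in its title, had 24 of 39 core members positive (median 0.06), and 13 of 39 without HN library 1 (median −0.06). AKT1, the kinase at its centre, had 138, 139 and 190 CPM in HN, against 158, 146 and 158 CPM in LN, with a log2 difference of 0.02 (95% interval −0.36 to 0.39). PIK3CA, the catalytic subunit of PI3K, had 96.6, 32.8 and 14.5 CPM in HN, against 42.5, 32.6 and 27.4 CPM in LN. RICTOR, the scaffold of mTOR complex 2, had 61.7, 38.8 and 16.2 CPM in HN, against 37.8, 36.1 and 30.7 CPM in LN. HN libraries lay on both sides of LN for PIK3CA and RICTOR, in the order of their smooth muscle level, and the log2 differences of 0.49 and 0.16 were −0.53 and −0.34 without HN library 1. Values with the smooth muscle level as a covariate are given in the closing section, and the cause was not tested. IGF1, the growth factor upstream of the pathway, had 21.1, 28.1 and 26.3 CPM in HN, against 52.1, 36.4 and 37.4 CPM in LN, without overlap (log2 difference −0.74 ± 0.44, and −0.63 without HN library 1). The 37 growth factors and receptors had 23 positive (median 0.06), and 12 of 37 without HN library 1 (median −0.10).

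Fatty acid oxidation and ketogenesis had 18 of 29 positive (median 0.09), and 24 of 29 without HN library 1 (median 0.23). HADHA, the alpha subunit of the mitochondrial trifunctional protein, had 323, 288 and 257 CPM in HN, against 202, 202 and 228 CPM in LN. HADHB, its beta subunit, had 206, 223 and 186 CPM in HN, against 178, 158 and 176 CPM in LN. Both subunits were above LN in each HN library, with log2 differences of 0.46 ± 0.20 and 0.27 ± 0.16, and 0.37 and 0.26 without HN library 1. PDK4, which holds pyruvate back from oxidation, had 413, 94.9 and 8.35 CPM in HN, against 18.2, 23.3 and 40.6 CPM in LN, on both sides of LN. Cholesterol synthesis genes had 2 of 22 positive (median −0.36), and 12 of 22 without HN library 1 (median 0.02). Cell cycle genes had 1 of 32 positive (median −0.41), 30 of the 32 lowest in HN library 1, and 17 of 32 were positive without it (median 0.02). TOP2A, the topoisomerase of dividing cells, had 7.62, 56.1 and 51.9 CPM in HN, against 62.5, 59.9 and 75.5 CPM in LN, below LN in every library. Circadian clock genes had 17 of 19 positive (median 0.22), 14 of the 19 highest in HN library 1, and 5 of 19 were positive without it (median −0.24). Smooth muscle markers had 14 of 18 positive (median 0.46) and 0 of 18 without HN library 1 (median −1.91). Fibroblast matrix genes had 15 of 17 positive (median 0.17) and 0 of 17 without it (median −0.39).

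Beside this comparison stands the fibre difference without NCG, from 6 other colon libraries. HF against LF also called 0 of 15075 genes with edgeR (DESeq2 called 1053), but 3071 had an unadjusted p under 0.05 (20.4%), and 4695 without HN library 1. Smooth muscle levels separated those groups, at 6.34 to 6.77 mean log2 CPM in HF and 10.04 to 12.09 in LF, whereas they overlapped between HN and LN. The part of muscle in the 3071 was not tested. The difference of the fibre differences, (HN minus LN) minus (HF minus LF), called 0 genes with edgeR (DESeq2 called 67), with 2264 at an unadjusted p under 0.05 (15.0%), 1686 higher and 578 lower. That count moved with single libraries, with 891 of 15244 without HN library 1, 3966 without HN library 3, 1515 without LN library 2 and 1085 without LN library 3. Without HN library 1 and LF library 2 it was 722, where 759 would be counted if p-values were evenly spread, and voom gave 815 higher and 1034 lower. The smallest p-values there belonged to UGCG, LOC110258110, CD2AP, TRANK1 and LOC100525112, all with an adjusted p of 0.327. UGCG, which makes glucosylceramide, had 52.5, 70.7 and 63.0 CPM in HN, against 76.6, 92.5 and 97.7 CPM in LN. In the diets without NCG it had 80.3, 81.2 and 67.6 CPM in HF, against 42.4, 36.5 and 47.8 CPM in LF. It was thus lower with fibre where NCG was fed and higher with fibre where it was not, each without overlap, and the difference of the log2 differences was −1.37 ± 0.25. CD2AP, a scaffold between membrane receptors and actin, had 58.6, 120 and 83.2 CPM in HN, against 189, 112 and 148 CPM in LN. It had 81.7, 86.7 and 104 CPM in HF, against 26.5, 43.9 and 33.9 CPM in LF, and the difference of differences was −2.17 ± 0.42. TLR10 had 2.80, 3.59 and 3.45 CPM in HF, against 1.68, 1.70 and 2.25 CPM in LF, so its level in LN was above that in the other 3 diets (difference of differences −1.92 ± 0.49; edgeR unadjusted p = 0.00260).

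The colon difference was also set against that of the ileum in a fit of all 24 libraries. HN against LN in ileum called 0 of 15675 genes with edgeR (DESeq2 called 76), with 1454 at an unadjusted p under 0.05 (9.28%). The colon difference minus the ileum difference called 0 genes (DESeq2 called 10), with 771 at an unadjusted p under 0.05 (4.92%) where 784 would be counted if p-values were evenly spread. This count was 547 of 15850 without colon HN library 1, 1583 without colon HN library 3, 441 without colon LN library 2 and 503 without colon LN library 3. The smallest p-values belonged to LPGAT1, UCP3, LOC102158214, ADIPOR2 and LOC100513868, with an adjusted p of 0.853. LPGAT1, a lysophospholipid acyltransferase, had 127, 147 and 109 CPM in colon HN, against 119, 116 and 121 CPM in colon LN, with overlap. Its log2 difference was 0.10 in colon and −0.95 in ileum, a difference of 1.05 ± 0.23. ADIPOR2, an adiponectin receptor, had 40.4, 39.6 and 44.8 CPM in colon HN, against 36.2, 45.7 and 25.8 CPM in colon LN, and its difference between tissues was 1.69 ± 0.39. LOC102158214 and LOC100513868 belong to the ileum-restricted genes and were removed by the filter on low counts in the colon fit. They had 2.99 and 9.38 CPM in colon HN library 1, and at most 0.249 and 0.555 CPM in the other 5 colon libraries of HN and LN. Without colon HN library 1 the fit called 1 gene, LOC106510546, with a difference of 2.26 between the tissues and an adjusted p of 0.00801. It had 6.65, 22.1 and 27.0 CPM in colon HN, against 17.3, 24.1 and 28.7 CPM in colon LN. In ileum it had 30.5, 24.4 and 35.1 CPM in HN, against 141, 159 and 112 CPM in LN, with LN ileum the highest of the 4 groups, and with all libraries its adjusted p was 0.853.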

How the data were processed

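Poly(A) RNA was sequenced from 12 colon and 12 ileum libraries of sows on 4 diets. Per the submitters' processing notes, fastp 0.22.0, HISAT2 2.1.0 and HTSeq 0.9.1 were used, with the Sscrofa11.1 build. The deposited table gives raw counts for 20674 genes, with gene length and FPKM. The authors' FPKM values equal these counts divided by length and library total, and were used only for that check. The comparisons rest on the deposited counts. The strand setting of counting is not given in the sources used here, so overlapping genes may share reads. In 25 symbols a date had replaced the name (such as that of MARCH1), and the RefSeq symbol with the same gene ID was used.

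Genes passing edgeR's filterByExpr were tested with edgeR 4.0.16 (R 4.3.3, TMM scaling, quasi-likelihood F-test, Benjamini-Hochberg over all tested genes, threshold 0.05). All 12 colon libraries entered 1 fit of 4 diet means, with the contrasts HN minus LN, HF minus LF and their difference. A fit of all 24 libraries gave the difference between tissues. Scores per library use log2 CPM with a prior count of 2. The fit was tested on simulated data of 14919 genes. The alternatives were DESeq2 1.42.0, limma 3.58.1 (voom), RLE scaling, no filter, only the 6 libraries, a replicate block, marker covariates and single omissions.

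Genes were named by rule: the 5 with the smallest p in each direction with and without HN library 1 (mean log2 CPM above 0), the 10 with the widest gap between groups in each direction (above 1), the 10 most raised in HN library 1, up to 5 per list by p, the 5 smallest for each difference of differences, and fixed targets. CDH1, MYH11, MTTP, SLC10A2, FCGBP, TFF3, CLDN2, HOXB13, GCG, PAX5, JCHAIN, CXCL8 and LOC106510546 fall outside the rule and were chosen after their values were seen. The members and lists were chosen with earlier results of these data known. Of 913 list entries 869 matched a gene in the table. Some genes that the rule or lists name are not reported here.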

Additional observations from a re-analysis of the deposited data

How the results depend on the processing

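The count of genes called for HN against LN was 0 in every alternative fitted but DESeq2, which called 1, and with genes higher in ileum left out it was also 0. DESeq2 called 1053 genes for HF against LF, 67 for the difference of the fibre differences, 10 for the difference between tissues and 76 for HN against LN in ileum, where voom called 6. Leaving out single colon libraries gave 0 to 1 genes for the difference between tissues and 0 to 2 for ileum. At an unadjusted p under 0.05 the 153 genes of HN against LN numbered 581 without HN library 3, 268 without HN library 2 and 89 without LN library 2, 98 without LN library 3, 260 without HN library 1 and LF library 2, 59 with only the 6 libraries, 304 with DESeq2, 70 with the small intestine level and 433 with the smooth muscle level as a covariate. RLE scaling placed the median of all genes at 0.06.

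The labels do not say whether the replicate numbers pair the libraries. Same-numbered HN and LN libraries deviated from their group means with correlations of 0.621, −0.0621 and 0.652, and HN library 2 correlated best with LN library 3. With 3 libraries a group the deviations depend on each other, so these correlations cannot decide whether the numbers pair the libraries. With the replicate block the fit called 0 genes, with 171 at an unadjusted p under 0.05, and the log2 differences of FCGBP and SLC5A8 were −0.12 and −0.10.

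Of 30 genes given with a log2 difference, 11 changed sign in at least 1 of 16 alternatives, 3 of them without HN library 1, and the cause was not tested. With voom CLCA1 had −0.66, FCGBP −0.82, FFAR2 −0.22, RICTOR −0.05, SLC5A8 −0.46 and TFF3 −0.65. With the smooth muscle covariate CLCA1 had −0.16, FCGBP −0.72, FFAR2 −0.12, RICTOR −0.07, SLC5A8 −0.76 and TFF3 −0.37, and with the small intestine covariate SLC16A1 had 0.01 and SLC5A8 −1.09. Over the omissions of libraries AKT1 ran between −0.15 and 0.10, FCGBP between −0.44 and 0.88, FFAR2 between −0.85 and 0.83, HES1 between −0.12 and 0.72, LPGAT1 between −0.01 and 0.20, PIK3CA between −0.54 and 0.92, RICTOR between −0.35 and 0.53, SLC16A1 between −0.69 and 0.19, SLC5A8 between −1.80 and 0.99 and TFF3 between −0.17 and 0.90. Leaving out HN library 1 and using the smooth muscle covariate, or leaving out HN library 1 and LF library 2, were alternatives chosen after seeing the data. They called 0 genes each, and the first gave PIK3CA −0.28 and RICTOR −0.16.

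A difference absent from the calls is not shown to be absent from the colon.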
